A study of Homo sapiens with 2 samples.

Results

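The 40 protein-coding genes for the human translation initiation factors, chosen by gene name, were followed in a table of 16645 annotated genes and 237608 transcript models. They held 2221 of those models. RNA strands of GM12878, an established B-lymphoblastoid cell line, were read as native RNA on nanopores in 2 libraries, replicates 1 and 2 of 1 untreated group. Reading starts at the 3′ end, and 1 strand gives 1 read, so counts per 1000000 reads (CPM) were compared between genes with no division by length. The libraries come from 1 line, and the labels do not say whether they are separate cultures. Every p-value below therefore sets the difference between these 2 libraries, which may be technical, against counting error alone, and compares no conditions. No test here estimates the variation between replicates.

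Initiation begins when EIF2, loaded with GTP and the initiator methionyl-tRNA, joins EIF1, EIF1A, EIF5 and the large EIF3 scaffold on the small ribosomal subunit. The EIF4 factors bind the mRNA cap and unwind the leader, the complex scans to a start codon, and EIF5B then joins the large subunit. EIF2B recharges EIF2 with GTP and is blocked by phosphorylated EIF2, and the EIF4E-binding proteins release EIF4E when mTOR phosphorylates them.

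Both libraries read B cells at depth. There were 1360368 reads in replicate 1 and 1510998 in replicate 2. A single read equalled 0.735 CPM in the first library and 0.662 CPM in the second. All 8 B cell markers were read, at 39.7 to 7766 CPM in replicate 1 and 46.3 to 8088 CPM in replicate 2. The 5 markers of other lineages summed to 2 and 4 reads.

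Start codon contexts are shown first, because these genes encode the machinery that reads them. A purine 3 bases before the start codon (position -3) and a G right after it (position 4) favour recognition. Capitals mark position -3, the start codon and position 4 in the GENCODE 29 transcripts, written as DNA. EIF1, which rejects poor contexts, and its close relative EIF1B carried neither favoured base, whereas EIF5A and EIF4A3 carried both. EIF5, which promotes GTP hydrolysis by EIF2, and the helicases EIF4A1 and EIF4A2 had the purine only.
EIF1: tcgtatCgtATGTcc
EIF1B: tagtatCgcATGTcc
EIF5A: cctcttAaaATGGca
EIF4A3: ctctgaAtcATGGcg
EIF5: taagccAaaATGTct
EIF4A1: ctaaggAtcATGTct
EIF4A2: tttcggAtcATGTct
Counted were transcripts with an annotated ATG start, 9 or more bases before it, and no mark of an incomplete 5′ end. The reference transcript of EIF4G2 did not meet this, and EIF4G2 was left out. Of the 39 other members, 16 had both bases (41.0%), beside 48.0% of 7517 genes read here. EIF1, EIF1B and EIF3B were the 3 with neither (7.69%, beside 6.11% of all). These letters describe the annotation, and no readout in the table measures start codon use.

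The 40 genes took 1.08% of all reads in replicate 1 (95% Wilson interval 1.06 to 1.10) and 1.01% in replicate 2 (0.999 to 1.03), or 1.05% ± 0.0464 (SD, n = 2). EIF3 subunits made up the largest share, with 0.463% and 0.466% of all reads. Members' levels ran from 14.0 to 1303 CPM in replicate 1, around a median of 180, and from 15.9 to 1193 CPM in replicate 2, around a median of 175. The order of the genes was alike in the libraries (Spearman's rho 0.980, Pearson's r 0.977 on log2 CPM, across 40 genes, which are not independent replicates). By mean CPM they ranked between 137 (EIF5A) and 6603 (EIF4G3) among all annotated genes.

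**Figure D1:**
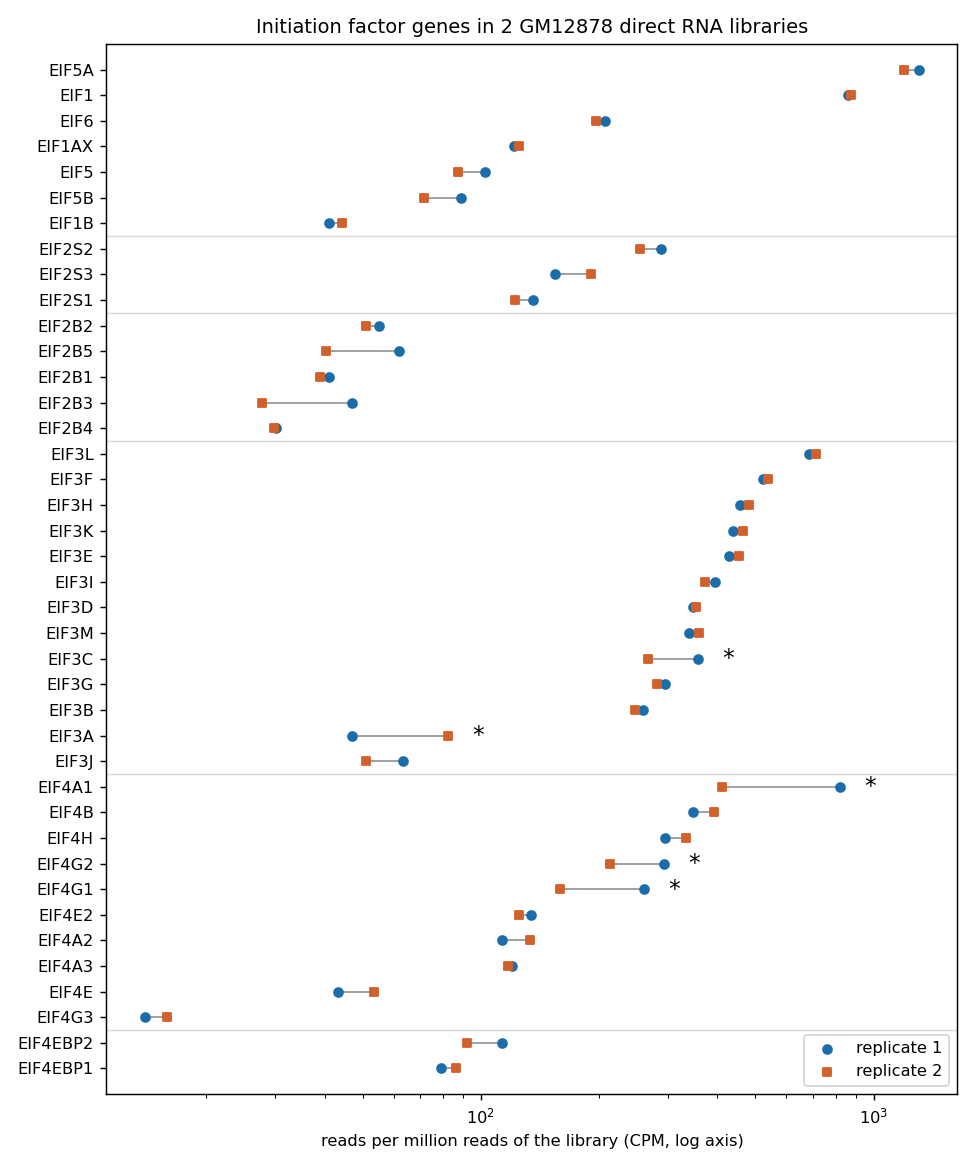
Level of each initiation factor gene in replicate 1 (circles) and replicate 2 (squares), in CPM on a log axis, grouped by role from start-site factors at the top to cap-binding repressors at the bottom. Asterisks mark the 5 genes whose libraries differed at an adjusted p under 0.05; EIF4A1 shows the widest gap of these on the CPM axis, 823 against 411.

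Among factors of start-site selection and subunit joining, EIF5A and EIF1 stood far above the rest. EIF5A, a hypusine-carrying factor now known mainly for peptide bond formation on difficult sequences, had 1773 reads in replicate 1 and 1803 in replicate 2, or 1303 and 1193 CPM. EIF1 had 1168 and 1324 reads, or 859 and 876 CPM. EIF5A was the higher of the pair in both libraries when all reads were counted. Among reads that matched an annotated transcript, EIF1 was higher, with 1068 and 1035 against 1026 and 719. EIF6, which keeps the ribosomal subunits apart, had 207 and 197 CPM. EIF1AX, the X-linked gene of EIF1A, which works with EIF1 in scanning, had 121 and 125 CPM. EIF5 (102 and 87.4 CPM) and the subunit-joining GTPase EIF5B (88.9 and 71.5 CPM) were lower, and EIF1B was lowest at 41.2 and 44.3 CPM. None of these 7 genes passed the test of a difference between libraries.

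The subunits of EIF2 and EIF2B are held in fixed ratios in the protein complexes, and their RNA levels lay within about the same range in both libraries. EIF2S2, the beta subunit, had 287 and 255 CPM. The gamma subunit gene EIF2S3, which binds GTP and the tRNA, had 154 and 191 CPM, and EIF2S1, whose protein carries the regulatory phosphorylation site, had 136 and 122 CPM. The order S2, S3, S1 was the same in both libraries, with a 2.11-fold and 2.08-fold range. It held for all reads only. Among reads that matched an annotated transcript, EIF2S2 had 185 and 86, EIF2S1 110 and 77, and EIF2S3, then lowest, 29 and 14. By CPM over all reads, EIF2B subunits lay well below EIF2. They spanned 30.1 (EIF2B4) to 61.7 CPM (EIF2B5, the catalytic subunit) in replicate 1 and 27.8 (EIF2B3) to 51.0 CPM (EIF2B2) in replicate 2. The coefficient of variation over the 5 subunits was 26.1% and 24.7%, and over the 3 EIF2 subunits it was 42.9% and 34.9%. None of these 8 genes passed the test between libraries.

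The 13 EIF3 subunits spread further, with a coefficient of variation of 48.2% and 50.4% over subunits and a highest-to-lowest ratio of 14.5 and 14.0. EIF3L, a subunit outside the conserved yeast core, was highest in both libraries at 684 and 714 CPM. EIF3F, one of the subunits with an MPN domain, followed at 523 and 538 CPM. EIF3H, EIF3K and EIF3E had between 429 and 457 CPM in replicate 1 and between 453 and 480 CPM in replicate 2, a narrower range than the gap to EIF3F. EIF3I, EIF3D, EIF3M, EIF3C, EIF3G and EIF3B lay between 247 and 395 CPM. EIF3J, a loosely attached subunit, had 63.2 and 51.0 CPM. EIF3A, the scaffold on which the complex is built, had 47.0 and 82.7 CPM. EIF3A was thus lowest in replicate 1 and EIF3J in replicate 2. When reads of annotated transcripts alone were counted, the mean coefficient of variation rose to 84.7% for EIF3, 79.0% for EIF2B and 69.4% for EIF2.

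In the cap-binding and helicase group the helicase EIF4A1 led at 823 and 411 CPM. Its cofactors EIF4B (346 and 392 CPM) and EIF4H (295 and 334 CPM) came next, EIF4B above EIF4H in both libraries. The helicase paralog EIF4A2 had 113 and 133 CPM, and EIF4A3, which sits in the exon junction complex, had 120 and 117 CPM. The order of those paralogs differed between libraries. EIF4G1, the scaffold that bridges cap and ribosome, had 261 and 159 CPM. EIF4G2, which lacks the EIF4E-binding part, had 293 and 213 CPM, and EIF4G3 had 14.0 and 15.9 CPM from 19 and 24 reads. The cap-binding protein EIF4E had 43.4 and 53.6 CPM. Its relative EIF4E2, which acts in repression, had 135 and 125 CPM, above EIF4E in both libraries. The repressors EIF4EBP2 (113 and 92.0 CPM) and EIF4EBP1 (79.4 and 86.7 CPM) were each read more often than EIF4E too.

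The read counts of 5 of the 40 genes differed between libraries (two-sided exact binomial test given both library sizes, Benjamini-Hochberg adjustment over 10634 genes with at least 10 reads), where 5.05% of all genes tested did. Members were read more deeply than the genes tested as a whole, with a median of 538.5 against 63 reads over both libraries. Among genes with at least 50 reads the call was made for 5 of 39 members and for 9.62% of 6105 genes. The medians were then still apart, at 578 and 133 reads. The median log2 ratio of replicate 2 to replicate 1 was -0.05 over members and 0.01 over all genes tested.

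EIF4A1 fell from 1119 reads to 621, a log2 ratio of -1.001 (adjusted p = 8.47e-43 by the exact binomial test). EIF4G1 fell from 355 to 241 reads (-0.71), EIF4G2 from 398 to 322 (-0.46) and EIF3C from 486 to 402 (-0.42). EIF3A rose from 64 reads to 125, a log2 ratio of 0.81 (adjusted p = 0.00665). Without genomic models, those that overlap a gene but do not follow its splicing, the EIF3A ratio was 0.69 with an adjusted p of 0.475 by the exact binomial test. With Known models alone, EIF4G1 (-0.43, adjusted p = 0.694) and EIF4G2 (-0.52, adjusted p = 0.240) did not pass the exact binomial test. Lower calls numbered 4 and higher calls 1, beside 2.33% and 2.72% of all genes.

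EIF4A1 shares its sequence with an annotated readthrough gene, SENP3-EIF4A1 (chr17:7563287-7578715, plus strand, GRCh38), whose span holds nearly all of EIF4A1 (chr17:7572706-7579005). The readthrough gene went from 477 to 873 reads, and its log2 ratio was 0.72 (adjusted p = 1.36e-16 by the exact binomial test). It moved opposite to EIF4A1. None of its reads matched an annotated model of its own. Incomplete splice matches (ISM), whose junctions are part of those of an annotated transcript, took 366 and 792 of them. Of these ISM reads, 345 and 751 lay in suffix models, which keep the 3′ end. SENP3 itself had 33 and 34 reads.

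Summed over EIF4A1 and the readthrough gene, the counts were 1596 and 1494 reads, or 1173 and 989 CPM. The log2 ratio of the sum was -0.25 (adjusted p = 0.000148 by the exact binomial test), against -1.001 for EIF4A1 alone. EIF4A1 held 70.1% of the sum in replicate 1 and 41.6% in replicate 2. EIF3C and its near-identical copy EIF3CL summed to 658 and 632 reads, a log2 ratio of -0.21 that did not pass (adjusted p = 0.121 by the exact binomial test). EIF5A and the copy EIF5AL1 summed to 1867 and 1958 reads, with a log2 ratio of -0.08 (adjusted p = 0.398 by the exact binomial test). The levels of EIF4A1, EIF3C and EIF5A on their own are uncertain to the extent that reads can be assigned to either gene of a pair.

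**Figure D2:**
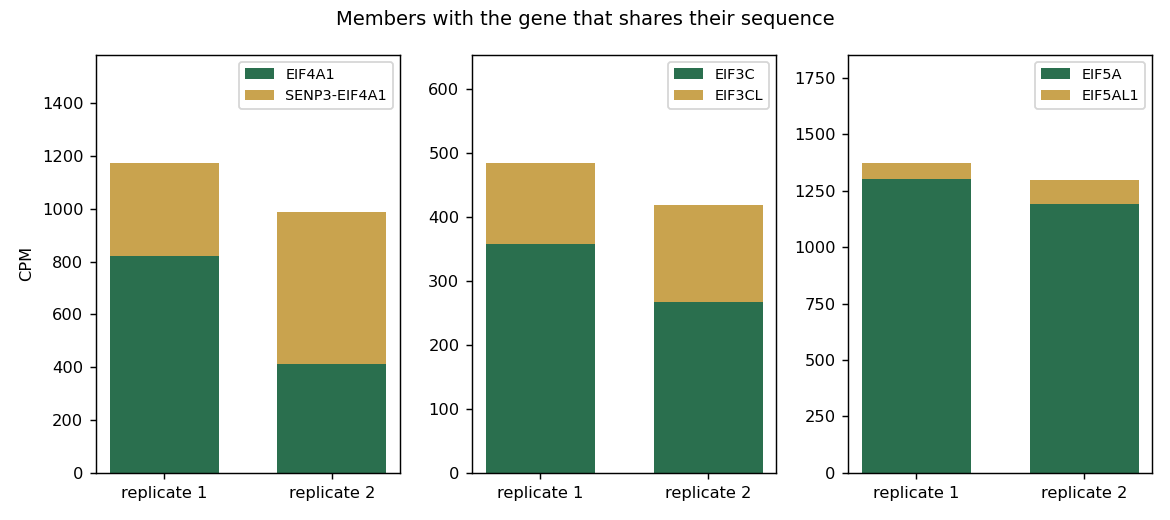
Stacked bars of CPM in each library for EIF4A1 with SENP3-EIF4A1, EIF3C with EIF3CL, and EIF5A with EIF5AL1, each panel on its own scale from 0. EIF4A1 falls from 823 to 411 CPM while SENP3-EIF4A1 rises from 351 to 578 CPM, so the summed bar changes less than its lower segment.

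A list of 30 other genes of the pathway (EIF2 kinases, poly(A)-binding proteins, mTOR components and others) gave 28 tested genes and 1 call. That call was EIF5AL1, which rose from 94 to 155 reads (log2 ratio 0.57, adjusted p = 0.0465 by the exact binomial test). PABPC1, the poly(A)-binding protein that contacts EIF4G, had 581 and 622 CPM. ATF4, a transcription factor translated when EIF2 is phosphorylated, had 152 and 159 CPM. MTOR had 25.7 and 16.5 CPM, and its log2 ratio of -0.63 did not pass (adjusted p = 0.434 by the exact binomial test).

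Reads of the initiation factor genes matched an annotated transcript (the Known category) less often in replicate 2. Known models took 50.04% of member reads in replicate 1 (95% Wilson interval 49.2 to 50.9) and 37.1% in replicate 2 (36.3 to 37.8), or 43.5% ± 9.19 (SD, n = 2). ISM models took 32.0% and 45.0%, and genomic models 9.43% and 12.2%. Over all annotated genes the Known share was 56.5% and 46.4%, and the ISM share 24.05% and 32.3%, so the shift was shared by the whole table. New combinations of annotated splice sites (NIC) took 4.25% and 2.65% of member reads, and models with an unannotated splice site (NNC) 4.32% and 3.11%.

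By gene, the Known share differed in 23 of 39 members with at least 20 reads in each library (two-sided Fisher's exact test, adjusted over 6340 genes), where 27.1% of all genes tested did. It fell in 22 and rose in 1, beside 26.9% and 0.268% of all genes. Members had a median of 578 reads over both libraries in this test, against 128 for all genes tested. With at least 50 reads in each library, 24 of 37 members and 45.6% of all genes passed. The medians were then still apart, at 596 and 236 reads. The median change was -11.2 percentage points over members and -8.62 over all genes tested.

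EIF1 had the highest Known share in both libraries, 91.4% and 78.2%. EIF2S2 fell from 47.3% to 22.3% (adjusted p = 1.34e-11 by Fisher's exact test). All 3 EIF2 genes and 10 of the 13 EIF3 genes fell, among them EIF3L from 43.2% to 23.9% and EIF3H from 57.1% to 38.0%. EIF4H fell from 32.7% to 15.1% and EIF5A from 57.9% to 39.9%. No EIF2B gene passed the test, although 4 of the 5 had a lower share in replicate 2 and EIF2B1 had no Known read in either library. EIF3A had no Known read either.

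EIF4A1, read more deeply than most members, did not pass, with 78.8% and 75.5% Known reads (adjusted p = 0.262 by Fisher's exact test). Counted together with the readthrough gene, its Known share was 55.3% and 31.4%. EIF3B (352 and 373 reads), EIF4G1 (355 and 241) and EIF4G2 (398 and 322) did not pass either. EIF5B was the gene that rose, from 4.13% to 16.7% (adjusted p = 0.0104 by Fisher's exact test). All its Known reads, 5 and 18, lay in EIF5B-202, a 2-exon model annotated as a retained intron. No read of EIF5B matched an annotated coding transcript in full.

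**Figure D3:**
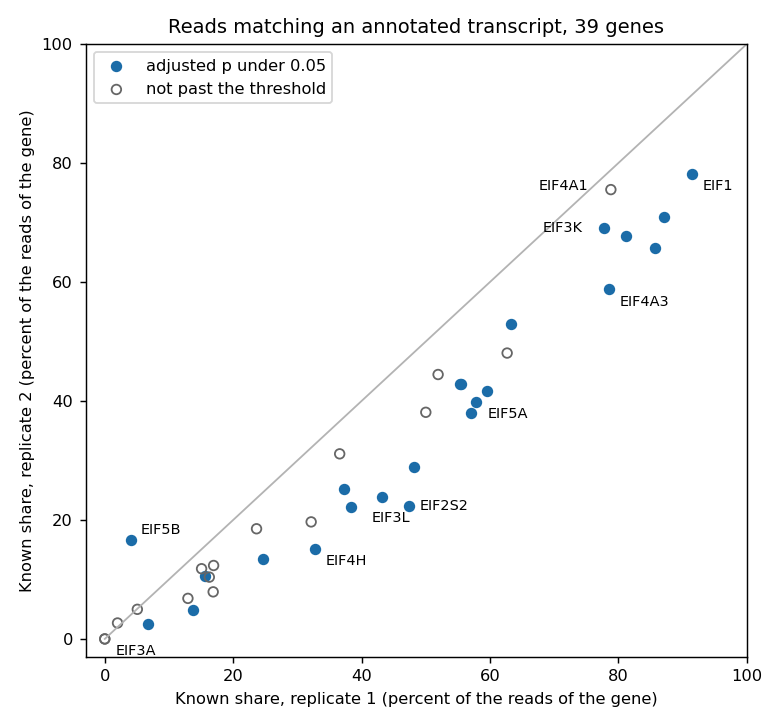
Percent of each gene's reads that matched an annotated transcript, replicate 1 on the x axis and replicate 2 on the y axis, for the 39 tested initiation factor genes, with the line of equal shares. Filled points passed the test; 22 of these lie below the line and EIF5B, at 4.13% and 16.7%, lies above it.

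Fewer exons were covered per read in replicate 2 in all 40 genes. The mean number of exons in the models that took a gene's reads had a median of 7.31 over members in replicate 1 and 5.22 in replicate 2. It was lower in replicate 2 in 91.2% of 6340 genes as well, with a median difference of -0.902 exons beside -1.05 for members. Suffix models, which lack exons at the 5′ end, held 78.6% and 77.7% of member ISM reads. Prefix models, which lack the 3′ end, held 3.13% and 2.29%. Across 40 members the Known share fell with the length of the reference transcript (rho -0.604 and -0.605, r -0.541 and -0.510), and the same reads and libraries underlie both correlations. For EIF2B1, EIF3A, EIF4G3 and EIF5B, with no coding Known read, that length came from the longest principal model, so it depends partly on the share. This comparison was not planned. The planned one, of the ISM share of Known and ISM reads with Known length over 37 members, gave a weaker rho of 0.236 and 0.270.

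**Figure D4:**
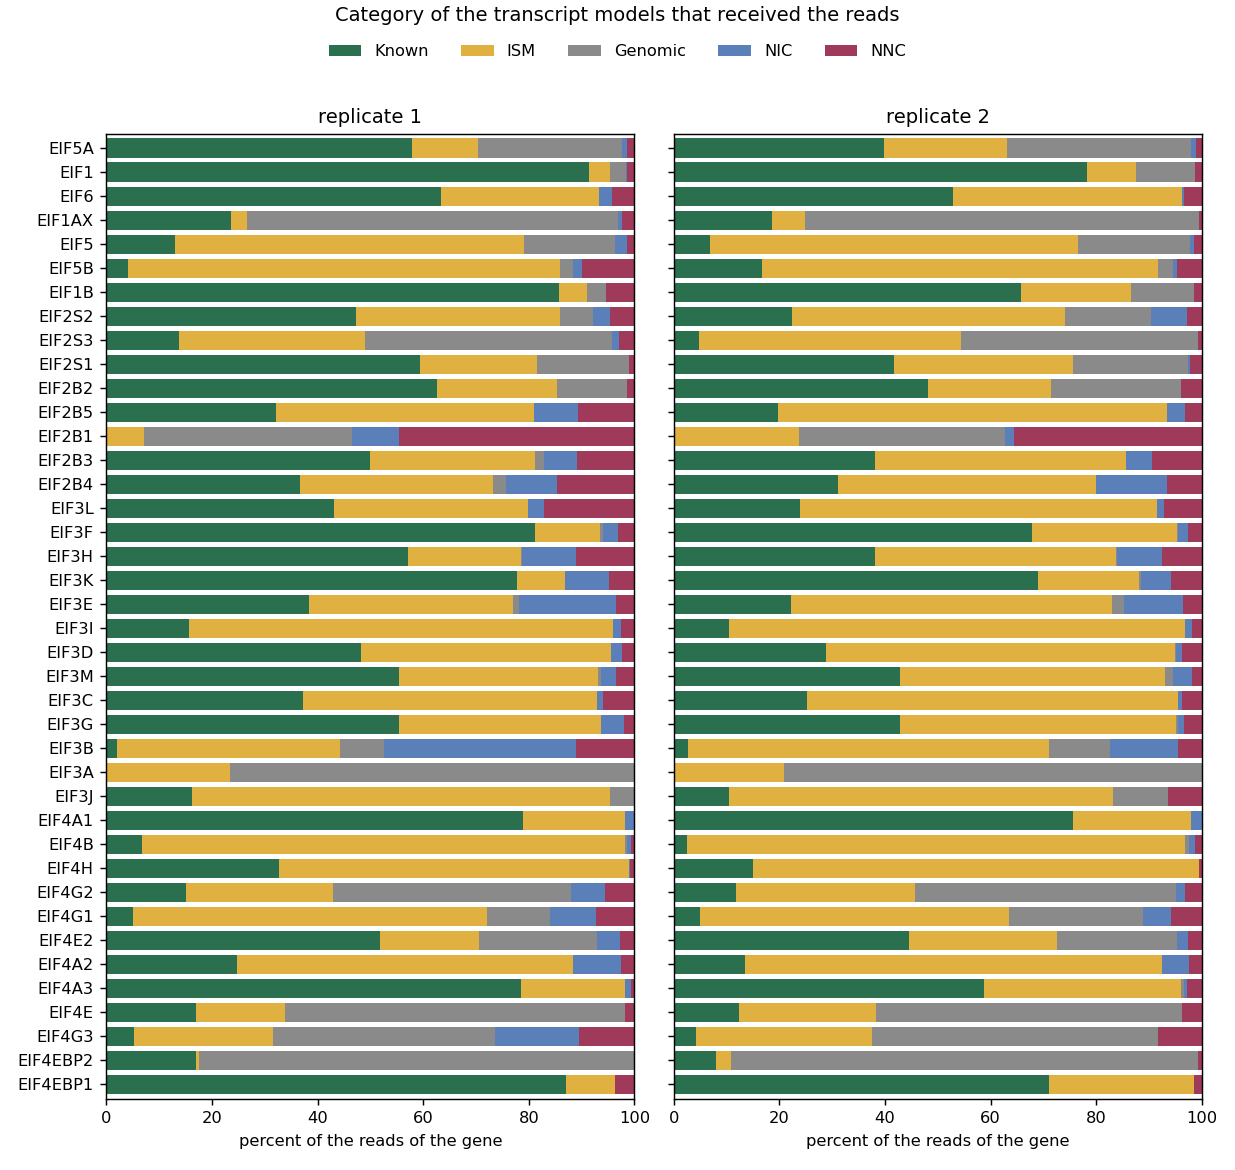
Stacked bars of the percent of each gene's reads in Known, ISM, genomic, NIC and NNC models, replicate 1 on the left and replicate 2 on the right, in the gene order of the plot of levels. The Known part of EIF1 is the longest in both panels (91.4% and 78.2%), and EIF3A and EIF2B1 have none.

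Reads in single-exon models rose from 14.6% to 20.2% of member reads, and from 22.2% to 28.5% over all annotated genes. In the 20 members with a last exon of 67 to 776 bases the median single-exon share was 2.44% and 2.60%, and in the 20 with one of 828 to 9459 bases it was 40.7% and 47.3%. Across all 40, the share rose with last exon length (rho 0.641 and 0.649, r 0.597 and 0.554). The points of each library share its depth and its read lengths. EIF5A had the most single-exon reads of any member, 485 and 629 (27.4% and 34.9% of the gene), with a last exon of 634 bases, in the shorter group.

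For 2 helicase cofactors, 1 single-exon model as long as a last exon took most of the reads. A 1928-base single-exon ISM model of EIF4H, as long as the last exon of EIF4H-202, had 208 and 373 reads, or 51.9% and 74.0% of the gene. A 2067-base model of EIF4B, as long as the last exon of EIF4B-201, had 267 and 401 reads, or 56.7% and 67.6%. In all, 16 of the 27 single-exon ISM models of members equalled in length the last exon of an annotated transcript of the gene. These held 607 of 758 and 1007 of 1234 reads of single-exon ISM models. The match was by length alone, and for EIF2S1 and EIF5B the transcript matched was annotated as a retained intron. Genomic single-exon models, 63 in 31 genes, had 1385 and 1860 reads, and none equalled a last exon. A genomic model took the most reads in 8 members in replicate 1 and in 10 in replicate 2. EIF1AX, EIF2S3, EIF4E, EIF4G1, EIF4G2 and EIF4G3 were led by such a model in both libraries. EIF4EBP2, where single-exon models held 82.5% and 88.5%, was too. So was EIF3A, where 1 model of 2124 bases held 49 of 64 and 99 of 125 reads. The rise of EIF3A between libraries was therefore mostly a rise of that 1 model.

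**Figure D5:**
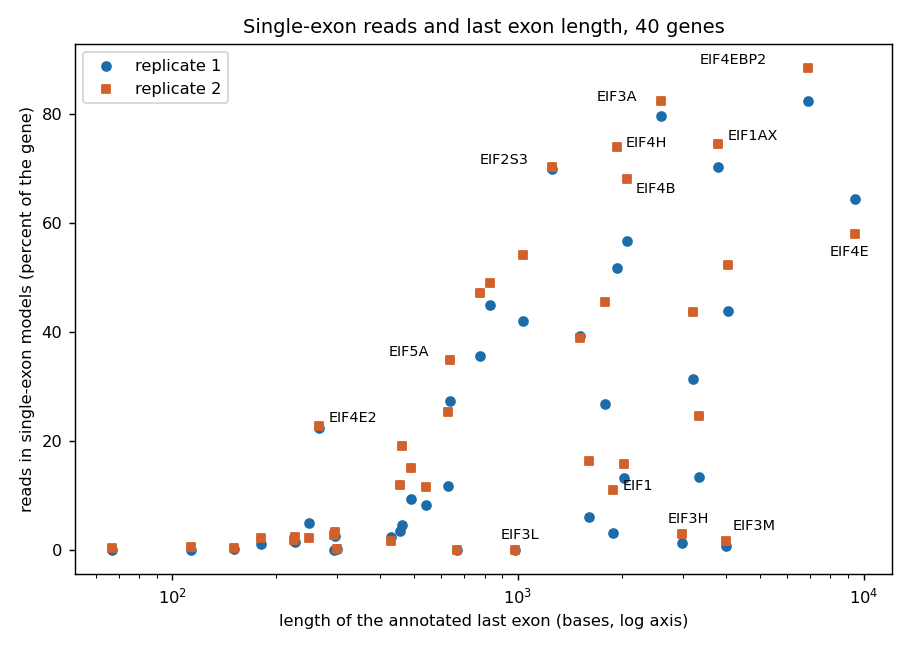
Percent of each gene's reads in single-exon models against the length of its annotated last exon (bases, log axis), for 40 genes in replicate 1 (circles) and replicate 2 (squares). Genes with last exons under 828 bases have a median of 2.44% and 2.60%, and those from 828 bases up have 40.7% and 47.3%; EIF4EBP2 is highest.

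The share of a gene's Known reads in its leading Known model differed in 8 of 22 members with at least 20 Known reads in each library and at least 2 models (two-sided Fisher's exact test, adjusted over 1878 genes), where 12.5% of all genes tested did. It fell in 7 and rose in 1, beside 11% and 1.44% of all genes. Members had a median of 355.5 Known reads over both libraries, against 144 for all genes tested. With at least 50 Known reads in each library, 8 of 18 members and 19% of 1073 genes passed; EIF4G2 was then not tested, and EIF3C was added. EIF3L-203, the 13-exon coding model of EIF3L, fell from 83.6% to 47.3% of Known reads (336 to 122 reads, adjusted p = 1.22e-20 by Fisher's exact test). The retained-intron models EIF3L-213 and EIF3L-209 went from 45 to 74 and from 21 to 61 reads. EIF3E-201, EIF2S1-201, EIF3D-201, EIF4A3-201, EIF1-203 and EIF3F-201, all coding, also fell.

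EIF4G2 was the 1 gene whose leading share passed with a rise, and its leading model is annotated as a retained intron. EIF4G2-204, with 3 exons and 690 bases, rose from 38.3% to 76.3% of Known reads (23 of 60 to 29 of 38 reads, adjusted p = 0.00469 by Fisher's exact test). The 22-exon coding model EIF4G2-201 had 27 and 5 reads. Over all members, retained-intron models held 4.41% and 10.6% of Known reads, beside 4.24% and 7.07% over all annotated genes. Of the 27 members with such reads, 22 had a higher share in replicate 2 and 4 a lower one. These counts were chosen after the values were seen and were not tested. No matching count of genes with a higher or lower share was made over all annotated genes.

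Known models that differ by a coding segment are shown for 3 genes, because these models differ in coding sequence and not only in where reads end. These are examples and not a full list. Other members also had reads in more than 1 coding Known model, such as EIF6-203 (100 and 102 reads) and EIF6-201 (74 and 53). EIF4H has a 60-base exon (exon 5 of EIF4H-201, chr7:74190247-74190306, plus strand, GRCh38) that EIF4H-202 lacks. It is in capitals between 15 bases of each flanking exon, with the joined flanks beneath.
EIF4H-201: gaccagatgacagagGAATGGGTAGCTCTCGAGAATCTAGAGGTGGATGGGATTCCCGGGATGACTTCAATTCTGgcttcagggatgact
EIF4H-202: gaccagatgacagaggcttcagggatgact
The form with the exon had 9 reads in each library, and the form without it 119 and 66. Inclusion was 7.03% in replicate 1 (95% Wilson interval 3.74 to 12.8) and 12.0% in replicate 2 (6.44 to 21.3), intervals that overlap. Near the start of the EIF4A2 coding sequence, an acceptor 3 bases upstream adds CAG (chr3:186784429-186784431, plus strand).
EIF4A2-205: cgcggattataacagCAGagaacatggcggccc
EIF4A2-201: cgcggattataacagagaacatggcggccc
The longer form had 7 and 3 reads and the shorter 25 and 19. Whether reads are assigned correctly to acceptors only 3 bases apart was not tested. In EIF3M, EIF3M-203 leaves out exons 2 to 4 of EIF3M-208 (396 coding bases within chr11:32587012-32589135), and its joined ends read as follows.
EIF3M-203: agtgaagaagatcaggttagaaaatggatt
EIF3M-208 had 221 and 187 reads and EIF3M-203 had 31 and 28. The share of EIF3M-208 in the pair was 87.7% (83.1 to 91.2) and 87.0% (81.8 to 90.8), so the balance of the forms moved by less than its counting error. All of these lengths are multiples of 3.

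Unannotated splice forms were many and mostly rare. Of 908 NIC and NNC models in 39 members, 718 had a single read over both libraries and 140 had a read in each. At least 5 reads in each library were found for 24 models in 13 genes, 19 of them in 8 EIF3 genes. Just 1 of the 24 also took 5% of its gene's reads in both libraries, an NNC model of EIF2B1 with 9 exons and 1784 bases. It had 23 of 56 reads in replicate 1 (41.1%) and 15 of 59 in replicate 2 (25.4%). The annotated EIF2B1-201 has 9 exons and 2477 bases and no read, so every spliced read of this regulatory EIF2B subunit fell in a model that the annotation lacks or holds only in part. Above that share in replicate 1 but not in replicate 2, EIF3L had a 13-exon NNC model with 110 and 46 reads (11.8% and 4.26%). EIF3B had a 19-exon NIC model with 55 and 16 reads (15.6% and 4.29%) and another with 41 and 16 (11.6% and 4.29%). An NNC model of EIF3H had 40 and 36 reads (6.43% and 4.96%). A NIC model of EIF3E had 31 and 13 reads (5.31% and 1.90%). These models were chosen after their values were seen.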

How the data were processed

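The deposited values are raw read counts, not normalized, per transcript model and replicate, made with TALON per the file's name, which assigns long reads to models. Exon numbers and lengths of models are other, non-measured properties in the deposited table. Per the submitters' processing notes, minimap2 and hg38 were used; versions, aligner settings and the annotation are not given in the sources used here. Known models matched GENCODE release 29 by identifier, length and exon number, so coordinates, transcript types and sequences come from it (GRCh38). Per the labels' protocols, depleted RNA entered a direct RNA kit with a reverse transcription step.

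The 40 members and all lists were chosen with earlier results of these data known. Counts were summed per gene and divided by library totals for CPM. Tests were run over all genes in scipy 1.17.1 with Benjamini-Hochberg adjustment, 0.05 being the threshold. The simulated counts used to check them held only sampling error and set changes. That check cannot tell how the tests behave under other variation between libraries. Log2 ratios used 0.5 added reads. The reference transcript of a gene is its protein-coding Known model with most reads, or without one the longest principal coding model. Members were named by role, and NIC and NNC models by at least 5 reads in each library and 5% of the gene's reads in both. Wilson 95% intervals, and the upper limit for a count of 0 (3 reads, 2.21 and 1.99 CPM), cover counting error only. Alternatives used edgeR 4.0.16 (TMM) and DESeq2 1.42.0 size factors, other read minimums, and categories left out. Summing genes that share sequence, and a stricter last-exon comparison, were chosen after seeing the data.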

Additional observations from a re-analysis of the deposited data

How the results depend on the processing

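No paired analysis was possible because both libraries belong to 1 group. Counting Known models alone lowered the mean share of reads in the 40 genes from 1.05% to 0.893%. Their mean coefficients of variation became 69.4% (EIF2), 79.0% (EIF2B) and 84.7% (EIF3), and without genomic models 56.1%, 28.8% and 52.8%. Some orders by level changed as well with Known models alone. In both libraries EIF1 then lay above EIF5A, EIF3F above EIF3L and EIF4H above EIF4B, and EIF2S3 was lowest of the EIF2 genes. Under Known models alone, 9 members differed between libraries by the exact binomial test, 2 of them shared with the 5 reported. All genes then had a median log2 ratio of -0.26, and 18.8% of them passed. EIF4G1 and EIF4G2 no longer did, at log2 ratios of -0.43 and -0.52 (adjusted p = 0.694 and 0.240 by the exact binomial test). TMM scaling gave 6 members, with EIF5A added, where 5.21% of all genes passed. Leaving out genomic models gave 5, with EIF3A lost and EIF5A added, where 8.26% of all genes passed. The Known share of EIF1B, at -14.3 points, then no longer passed (adjusted p = 0.154 by Fisher's exact test). Taking the leading model among all spliced models gave 18 members, where 30% of all genes passed, and EIF4G2 no longer did (adjusted p = 0.121 by Fisher's exact test). NIC and NNC models numbered 63 at a minimum of 2 reads in each library and 11 at 10.

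The mean Spearman's rho of the ISM share with Known length, 0.253 over 37 members (Pearson's r 0.0310 and 0.0746 in the libraries), became 0.286 with the longest Known model and 0.443 at 50 or more reads. Leaving out 1 library gave a share of reads of 1.01% to 1.08%, a Known share of 37.1% to 50.04%, coefficients of variation of 34.9% to 42.9% (EIF2), 24.7% to 26.1% (EIF2B) and 48.2% to 50.4% (EIF3), and a rho of 0.236 to 0.270. With 1 library left, no test between libraries could be made. No call tried changed direction. Depth limits EIF4G3, with 19 and 24 reads, and the EIF2B genes, with 41 to 84 and 42 to 77.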

Other observations

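Pseudogenes of the initiation factors, taken by gene symbol alone, had 61 reads in replicate 1 and 99 in replicate 2 over 18 genes. The members had 14695 and 15330 reads. EIF3FP3, a copy of EIF3F, had 12 and 37 reads, a log2 ratio of 1.43 (adjusted p = 0.0324 by the exact binomial test with Benjamini-Hochberg adjustment over 10634 genes). EIF3F itself had 711 and 813 reads. The 4 EIF4A1 pseudogenes summed to 21 and 25 reads. Whether reads of the parent genes contribute to these counts was not tested.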
